A study of Rattus norvegicus with 16 samples.

Results

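Neuropeptide precursor genes were examined in sorted cells of the rat carotid body, the oxygen-sensing organ beside the fork of the carotid artery. The set held 10 genes, Npy, Tac3, Cartpt, Prlh, Tac1, Adcyap1, Vip, Gal, Penk and Sst, of the 18166 genes that the array annotation pairs with a single-gene probe. Each of the 10 had exactly 1 such probe. They are a list of named genes, drawn up with earlier results of these data in view. The samples fell into 4 groups of 4 arrays: hypoxic neuroblasts, hypoxic glomus cells, normoxic neuroblasts and normoxic glomus cells. All came from Wistar rats aged 9 to 11 weeks, with tissue of both sides mixed. Hypoxic rats had spent 3 days in chambers of low oxygen, whose level the labels do not give, and normoxic rats had breathed ambient air. Neuroblasts were the cells that bound the HNK-1 antibody and glomus cells those that did not. Any other cell without the epitope could thus fall in the glomus gate, and any other cell with it in the neuroblast gate. How many rats went into a sample, and whether samples of a group came from different rats, is not stated.

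A neuropeptide is made as a longer precursor protein, which convertases cut at basic residues while it is packed into dense-core granules, and it is released with the amine transmitter of the cell when calcium enters. Glomus cells are chemoreceptor cells that release dopamine and other transmitters onto the sensory nerve, and peptides such as substance P and enkephalins have long been described in the carotid body. Neuroblasts of this organ are immature cells of the same sympathoadrenal lineage, from which new glomus cells can form in long hypoxia.

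All levels below are the authors' log2 signals, and differences are log2 with the standard error after ±. A gene passed when its adjusted p from limma, fitted over all 30429 probes, was under 0.05. Counts at an unadjusted p under 0.05 are given without the share of all probes, which was not counted at that threshold. Probes differ in how brightly they report a transcript, so levels were compared between groups within a gene and never between genes. In sorted cells measured in bulk, fewer cells that make a peptide and less RNA per cell cannot be told apart. The array medians were higher in hypoxia, at 4.71 to 4.94 in neuroblasts and 4.71 to 4.74 in glomus cells, against 4.40 to 4.61 in normoxic neuroblasts and 4.42 to 4.64 in normoxic glomus cells. The median hypoxia difference over all probes was 0.25 in neuroblasts and 0.17 in glomus cells, so hypoxia results are set beside their values after each array was centred on its median. Across probes, hypoxic neuroblast replicate 1 correlated least with its own group (mean r = 0.914), and every other array reached 0.949 or more. No label gives an array batch, so none was tested. The glomus cell markers had list means of 8.97 to 9.85 in hypoxic neuroblasts, 9.97 to 10.17 in hypoxic glomus cells, 9.46 to 9.78 in normoxic neuroblasts and 10.26 to 10.47 in normoxic glomus cells. Among them Th, the rate-limiting enzyme of dopamine synthesis, was at 11.13 ± 1.20 in hypoxic neuroblasts, 12.11 ± 0.28 in hypoxic glomus cells, 12.30 ± 0.19 in normoxic neuroblasts and 12.62 ± 0.09 in normoxic glomus cells (SD, n = 4).

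Of the 10 genes, 4 passed in at least 1 comparison and 6 passed in none. Npy and Tac3 rose in hypoxia in both populations, Cartpt rose in neuroblasts, and Prlh was higher in neuroblasts than in glomus cells in both oxygen conditions. In hypoxic against normoxic neuroblasts, 3 of 10 genes rose, where 18.4% of all probes did (6.0% with centred arrays, which kept the same 3 genes). In hypoxic against normoxic glomus cells, 2 of 10 rose, where 9.37% of all probes did (4.5% with centred arrays, with the same 2 genes). None of the 10 passed as lower in hypoxia by limma in either population, where 13.7% of all probes did in neuroblasts and 9.5% in glomus cells (18% and 12.4% with centred arrays), and 1, Prlh in neuroblasts, had a negative difference at an unadjusted p under 0.05. The median difference of the 10 was 0.32 in neuroblasts and 0.28 in glomus cells, against 0.25 and 0.17 over all probes.

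**Figure D1:**
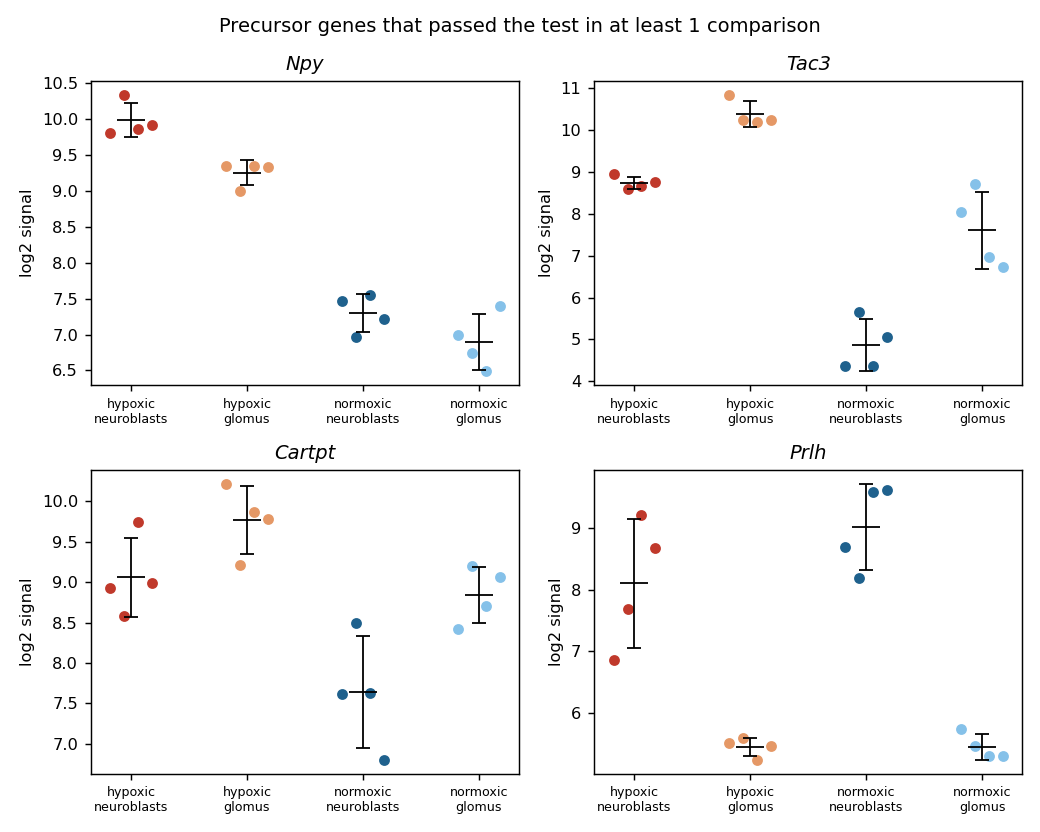
Log2 signal (vertical axes, which do not start at 0) of Npy, Tac3, Cartpt and Prlh in the 4 groups. Each coloured point is 1 array and the black bars are the group mean with its SD (n = 4); Npy and Tac3 were higher in both hypoxic groups than in the normoxic group of the same cells, and Prlh was higher in both neuroblast groups.

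Npy (probe 17783542) encodes neuropeptide Y, a cotransmitter of sympathetic neurons and chromaffin cells. It was at 9.80, 10.33, 9.86 and 9.91 in hypoxic neuroblasts and at 9.34, 8.99, 9.34 and 9.33 in hypoxic glomus cells. In normoxic neuroblasts it was at 7.47, 6.97, 7.55 and 7.21, and in normoxic glomus cells at 6.99, 6.74, 6.49 and 7.40. Every hypoxic array was thus above every normoxic array, with a gap of more than the range within any group. Npy rose by 2.68 ± 0.20 in neuroblasts (6.39-fold, adjusted p = 2.89e-07) and by 2.35 ± 0.20 in glomus cells (5.08-fold, adjusted p = 5.89e-06). With centred arrays these rises were 2.39 and 2.13. The rise in neuroblasts minus that in glomus cells was 0.33 ± 0.29 (interaction, adjusted p = 0.888, 95% interval -0.27 to 0.93). Between the populations, Npy was 0.72 ± 0.20 higher in neuroblasts in hypoxia, where the groups did not overlap but the test was not passed (adjusted p = 0.174), and differed by 0.40 ± 0.20 in normoxia, where they overlapped (adjusted p = 0.611). The mean levels ran from hypoxic neuroblasts (9.98 ± 0.24) over hypoxic glomus cells (9.25 ± 0.17) and normoxic neuroblasts (7.30 ± 0.26) to normoxic glomus cells (6.90 ± 0.39; SD, n = 4).

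Tac3 (probe 17828745) encodes the precursor of neurokinin B, the tachykinin that acts on the NK3 receptor. Its levels were 8.94, 8.60, 8.67 and 8.76 in hypoxic neuroblasts, against 4.37, 5.65, 4.36 and 5.06 in normoxic neuroblasts. In glomus cells they were 10.84, 10.25, 10.18 and 10.25 in hypoxia, against 8.04, 8.70, 6.97 and 6.74 in normoxia. Hypoxic arrays lay above normoxic arrays in each population without overlap. Tac3 rose by 3.88 ± 0.36 in neuroblasts (14.7-fold, adjusted p = 1.23e-06) and by 2.77 ± 0.36 in glomus cells (6.81-fold, adjusted p = 6.75e-05), or by 3.60 and 2.55 with centred arrays. The larger rise in neuroblasts did not pass as a difference between the populations (interaction 1.12 ± 0.51, adjusted p = 0.748).

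Tac3 was also the gene of the set that was lower in neuroblasts. In normoxia it averaged 4.86 ± 0.62 in neuroblasts and 7.61 ± 0.92 in glomus cells (SD, n = 4), a difference of -2.75 ± 0.36 (6.74-fold lower, adjusted p = 0.000263). In hypoxia it averaged 8.74 ± 0.15 in neuroblasts and 10.38 ± 0.31 in glomus cells, and the difference of -1.64 ± 0.36 did not pass (adjusted p = 0.0727), although all 4 neuroblast values lay below all 4 glomus values. That hypoxic difference passed when 1 normoxic array was left out, with neuroblast replicate 2 (adjusted p = 0.0496), glomus replicate 2 (0.0352) or glomus replicate 4 (0.0499) the array concerned, and these enter it only through the shared variance. It also passed when only the 8 hypoxic arrays were fitted (adjusted p = 0.0145). Cell markers moved with the same sort. Of the 11 glomus cell markers 5 were lower in normoxic neuroblasts (Slc18a1, Chga, Cox4i2, Ndufa4l2 and Kcnk3), with a median difference of -0.99, and the list means given above did not overlap. In hypoxia 0 of the 11 passed by limma, with a median difference of -0.39, though the list means did not overlap there either. Of 9 macrophage markers 5 were lower in neuroblasts in normoxia and 6 in hypoxia. The mean level of that list was 3.97 to 4.60 in normoxic neuroblasts and 4.85 to 6.49 in normoxic glomus cells. In hypoxia it was 4.43 to 4.98 in neuroblasts and 6.06 to 6.52 in glomus cells. Of 4 endothelial markers 1, Cldn5, was lower in neuroblasts in each condition. The mean of the endothelial list was 3.91 to 4.81 in normoxic neuroblasts and 5.45 to 7.06 in normoxic glomus cells. In hypoxia it was 5.08 to 5.32 in neuroblasts and 6.36 to 7.45 in glomus cells. The part of any of these markers' cells in the Tac3 difference of either condition was not tested.

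Prlh (probe 17861526) encodes prolactin-releasing hormone, a peptide best known from brainstem noradrenergic neurons. In normoxia its levels were 8.69, 8.20, 9.60 and 9.62 in neuroblasts, against 5.74, 5.45, 5.29 and 5.29 in glomus cells. In hypoxia they were 6.86, 7.68, 9.22 and 8.68 in neuroblasts, against 5.50, 5.59, 5.23 and 5.45 in glomus cells. Every neuroblast array was above every glomus array. The difference between the populations was 3.58 ± 0.40 in normoxia (12-fold, adjusted p = 5.55e-05) and 2.67 ± 0.40 in hypoxia (6.35-fold, adjusted p = 0.00512). In hypoxia the call did not hold in the fit of only the 8 hypoxic arrays (the same difference, adjusted p = 0.0606), in which Tac3 passed. Other markers of the sort moved with Prlh in normoxia. Of 10 markers of neuroblasts and immature neurons 7 were higher in normoxic neuroblasts, with a list mean of 7.48 to 7.99 in neuroblasts and 6.30 to 6.56 in glomus cells. In hypoxia 0 of the 10 passed by limma, and the list mean was 6.36 to 6.80 in neuroblasts and 6.02 to 6.30 in glomus cells. Of 4 type II and glial markers 0 passed by limma between the populations in either condition. Their list mean in normoxia was 4.92 to 5.43 in neuroblasts and 4.36 to 5.04 in glomus cells. In hypoxia it was 6.12 to 6.38 in neuroblasts and 5.18 to 5.85 in glomus cells, without overlap. The part of any of these markers' cells in the Prlh difference was not tested.

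The glomus cells of both conditions had the same mean Prlh level, 5.44 ± 0.15 in hypoxia and 5.44 ± 0.21 in normoxia (SD, n = 4), and the 95% interval of the difference was -0.84 to 0.84 (the difference was -0.22 with centred arrays, adjusted p = 0.842). In neuroblasts the hypoxic level of 8.11 ± 1.05 stood against 9.03 ± 0.70 in normoxia. The difference of -0.92 ± 0.40 did not pass (adjusted p = 0.0841, and -1.20 with centred arrays, adjusted p = 0.0535), and the groups overlapped. It was -0.50 without hypoxic neuroblast replicate 1 (adjusted p = 0.297), and it passed at -1.29 without hypoxic neuroblast replicate 3 (adjusted p = 0.017) and at -1.19 without normoxic neuroblast replicate 2 (adjusted p = 0.0379). The SD of 1.05 was the largest group SD among the 10 genes. Hypoxic neuroblast replicate 1, the lowest of its group for Prlh, was also the lowest for Th, at 9.40 against 12.17, 11.48 and 11.46 on the other arrays. The interaction was -0.92 ± 0.56 (adjusted p = 0.815).

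Cartpt (probe 17744705) encodes the cocaine- and amphetamine-regulated transcript peptides, which are stored in granules of many neuroendocrine cells. Its levels were 8.93, 8.58, 9.74 and 8.99 in hypoxic neuroblasts, against 7.62, 8.49, 7.63 and 6.80 in normoxic neuroblasts. In glomus cells they were 10.22, 9.21, 9.87 and 9.78 in hypoxia, against 8.42, 9.20, 8.70 and 9.06 in normoxia. In both populations the hypoxic arrays as deposited lay just above the normoxic arrays without overlap. The lowest hypoxic glomus value, 9.21, was on an array with a median of 4.71, and the highest normoxic one, 9.20, on an array with 4.52. In neuroblasts these were 8.58 (median 4.77) and 8.49 (median 4.57). After each array was centred on its median, the groups overlapped in both populations. Cartpt rose by 1.42 ± 0.32 in neuroblasts (2.69-fold, adjusted p = 0.00296, and 1.14 with centred arrays). In glomus cells the difference was 0.92 ± 0.32 and did not pass (adjusted p = 0.0525, and 0.171 with centred arrays).

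The glomus cell value of Cartpt lay close to the threshold. Its adjusted p was 0.0491 without hypoxic neuroblast replicate 1, 0.0397 without hypoxic neuroblast replicate 3, 0.0301 without normoxic neuroblast replicate 2, 0.0326 without normoxic neuroblast replicate 4 and 0.0323 without hypoxic glomus replicate 2. In the last of these fits the difference was 1.11. It also passed with only the glomus arrays fitted (0.015), without the dimmest 25% (0.0431) or the dimmer 50% of probes (0.0332), and with array weights (0.0344). The interaction of 0.50 ± 0.45 did not separate the populations (adjusted p = 0.893). Cartpt was lower in neuroblasts than in glomus cells by -1.21 ± 0.32 in normoxia, without passing (adjusted p = 0.0691), and by -0.71 ± 0.32 in hypoxia (adjusted p = 0.426). The normoxic difference passed without normoxic neuroblast replicate 2 (-1.50, adjusted p = 0.0163), the brightest of its group, and without hypoxic neuroblast replicate 3 (adjusted p = 0.0487). It passed as well with array weights (-1.36, adjusted p = 0.0125) and without the dimmer 50% of probes (adjusted p = 0.0416).

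Taking both comparisons of the populations, 1 of 10 genes was higher in neuroblasts in normoxia, Prlh, where 0.996% of all probes were. In the same comparison 1 of 10 was lower, Tac3, where 0.828% of all probes were. In hypoxia 1 of 10 was higher, again Prlh, where 0.138% of all probes were. The groups did not overlap for 3 of 10 genes in normoxia (Prlh, Tac3 and Adcyap1) and 3 in hypoxia (Prlh, Tac3 and Npy), where 7.39% and 4.48% of all probes did not. With arrays as deposited, hypoxic values lay wholly above normoxic values for 3 genes in neuroblasts and 3 in glomus cells (Npy, Tac3 and Cartpt in each), where 16.3% and 15.2% of all probes did so. With centred arrays the Cartpt values overlapped in both populations. By limma 0 of 10 passed the interaction test, against 0.0789% of all probes, and 1, Tac3, had an unadjusted p under 0.05.

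**Figure D2:**
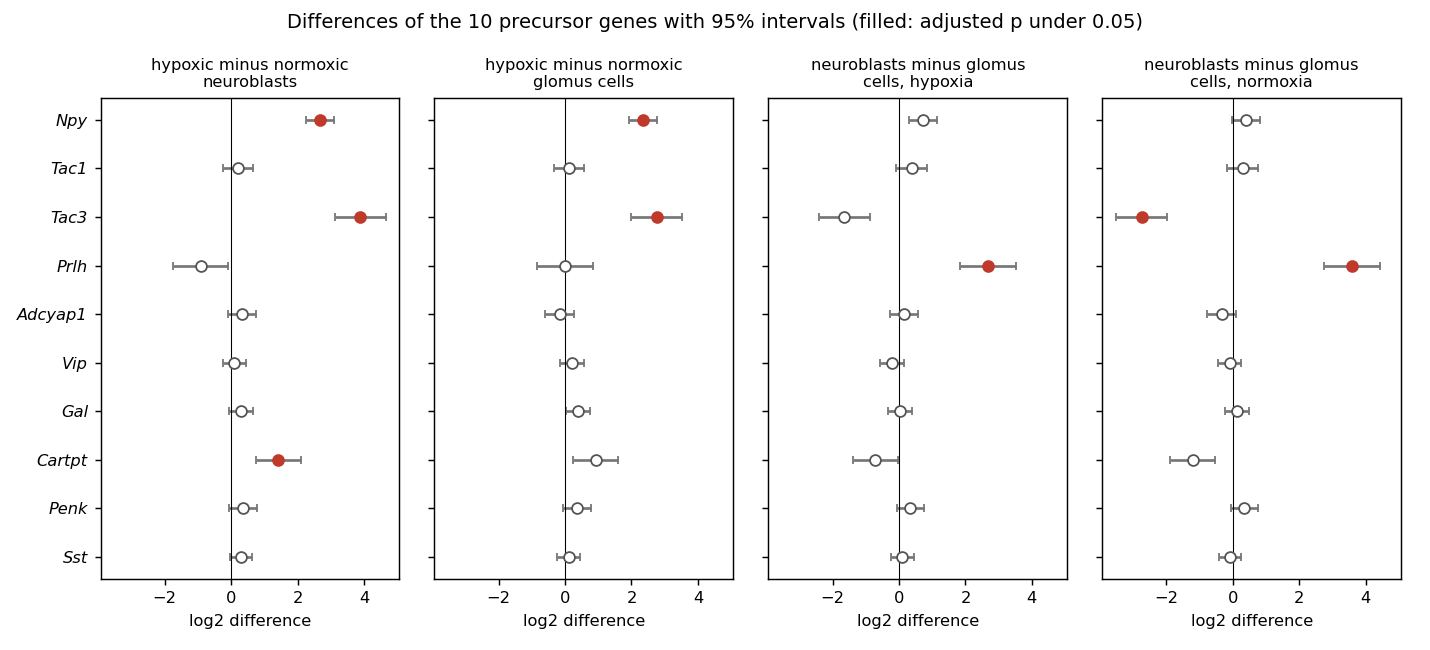
Log2 differences of the 10 genes in the 4 comparisons (horizontal axes, shared scale), with 95% intervals from limma as bars; filled points passed at an adjusted p under 0.05. Filled points are Npy, Tac3 and Cartpt for hypoxia in neuroblasts, Npy and Tac3 for hypoxia in glomus cells, Prlh for neuroblasts in hypoxia, and Tac3 and Prlh for neuroblasts in normoxia.

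Markers of other cells moved with hypoxia too, counted here with arrays as deposited. Of all probes 18.4% rose and 13.7% fell in neuroblasts, and 9.37% rose and 9.5% fell in glomus cells. In hypoxic against normoxic neuroblasts 8 of the 10 markers of neuroblasts and immature neurons fell, with a list mean of 6.36 to 6.80 in hypoxia and 7.48 to 7.99 in normoxia. The glomus markers split, with 3 of 11 higher and 4 lower. Of the 4 type II and glial markers 2, Gfap and S100b, rose in neuroblasts (list mean 6.12 to 6.38 in hypoxia and 4.92 to 5.43 in normoxia). In hypoxic against normoxic glomus cells 3 of the 9 macrophage markers rose (list mean 6.06 to 6.52 in hypoxia and 4.85 to 6.49 in normoxia). Of the remaining lists, 2 of 6 T and NK cell markers, 2 of 4 mast cell markers, 1 of 4 endothelial markers and the 1 erythroid marker measured rose in neuroblasts. Of 4 pericyte markers 1, Rgs5, fell there, with 11.44 in hypoxia and 12.32 in normoxia, while Pdgfrb, Myh11 and Cspg4 did not pass. Among 5 fibroblast markers 0 passed there. Their list mean was 8.87 on normoxic neuroblast replicate 2, against 5.30, 5.91 and 5.43 on the other arrays of that group. Leaving out this array changed calls of Tac3, Prlh and Cartpt, as given above, and the part of its fibroblast signal in that was not tested. Of 11 markers of autonomic and sensory neurons 2 rose and 3 fell in neuroblasts. Glomus cells had 1 rise among the T and NK cell, glial and endothelial markers each. They had 1 fall each among those of pericytes, again Rgs5, and of autonomic and sensory neurons. Of their own 11 markers Cox4i2 rose and Ddc, Epas1 and Kcnk3 fell, and of the 10 markers of neuroblasts and immature neurons Sox4 and L1cam fell. Some of these probes were dim, such as the mast cell marker Cpa3 at 2.84 in hypoxic and 2.16 in normoxic neuroblasts. A dim signal does not show that its cells were present. The part of these cells in the rises of Npy, Tac3 and Cartpt was not tested.

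The RefSeq promoter windows of 3 of these genes are shown because Npy and Cartpt rose in hypoxia and Prlh did not. RefSeq windows were matched by gene ID for 8 of the 10 genes, and the set of windows used held none for Tac3 and Penk. Each line holds the 250 bases before the annotated start, 5′ to 3′ on the strand of the gene, build GRCr8. Npy is at chr4:80211861-80212110 on the plus strand, Cartpt at chr2:32991236-32991485 on the minus strand and Prlh at chr9:98993913-98994162 on the plus strand. Capitals mark, on either strand, TGACG, the core of the cAMP response element, and ACGTG or GCGTG, the core of the hypoxia response element.
Npy: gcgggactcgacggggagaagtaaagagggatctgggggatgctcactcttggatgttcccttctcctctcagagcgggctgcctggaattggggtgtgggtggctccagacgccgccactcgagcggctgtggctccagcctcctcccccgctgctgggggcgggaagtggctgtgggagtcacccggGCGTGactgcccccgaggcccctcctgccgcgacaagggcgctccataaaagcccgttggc
Cartpt: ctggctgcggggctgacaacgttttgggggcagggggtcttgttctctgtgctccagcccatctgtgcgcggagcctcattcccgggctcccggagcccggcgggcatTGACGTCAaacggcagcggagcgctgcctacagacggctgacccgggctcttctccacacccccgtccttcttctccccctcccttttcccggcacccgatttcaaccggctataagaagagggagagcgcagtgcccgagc
Prlh: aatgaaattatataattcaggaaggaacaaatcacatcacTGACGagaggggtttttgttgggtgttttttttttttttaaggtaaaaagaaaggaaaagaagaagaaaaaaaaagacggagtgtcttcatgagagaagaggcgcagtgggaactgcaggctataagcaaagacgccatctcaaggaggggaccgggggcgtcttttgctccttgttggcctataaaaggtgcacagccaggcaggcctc

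The Cartpt window held the full cAMP response element TGACGTCA, a palindrome that holds TGACG on each strand, from 142 to 135 bases before the start. Of 27457 RefSeq windows of the same length 1.7% held TGACGTCA, and Cartpt was the 1 gene among the 8. The core TGACG stood in 5 of the 8 windows (Cartpt, Prlh, Vip, Gal and Tac1) and in 19.0% of all windows. In Prlh it lay from 210 to 206 bases before the start. The Npy window held GCGTG from 61 to 57 bases before the start and no TGACG, and neither ACGTG nor GCGTG stood in the Cartpt or Prlh window. A match to ACGTG or GCGTG occurred in 4 of the 8 windows (Npy, Tac1, Gal and Sst) and in 37.9% of all. These are matches of letters only.

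The other 6 genes passed in no comparison. Tac1 (substance P and neurokinin A), Adcyap1 (PACAP, a peptide that activates adenylate cyclase), Vip (vasoactive intestinal peptide) and Gal (galanin) were below the array median on all 16 arrays, with levels of 1.89 to 3.02, 2.49 to 3.44, 3.20 to 4.06 and 3.71 to 4.51. Penk (enkephalins) ranged from 4.12 to 5.34, with 8 arrays above and 8 below their own median, and Sst (somatostatin) from 4.73 to 5.38, above it on all 16. Detection calls were not among the values used here, so a dim probe is not evidence that a transcript was missing. The 24 pairwise differences of these 6 genes ran from -0.34 to 0.40, and the 95% intervals of these signal differences stayed between -0.77 and 0.84. Without detection calls, and with Tac1, Adcyap1, Vip and Gal below the array median throughout, these intervals set no limit on the difference in transcript. With arrays as deposited their hypoxia differences ran from -0.16 to 0.40, and with centred arrays from -0.38 to 0.18. Group SDs were 0.07 to 0.43.

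The closest of these to a call was Gal in glomus cells. Its levels were 3.85, 4.24, 4.51 and 4.40 in hypoxia, against 4.15, 3.75, 3.80 and 3.71 in normoxia, with overlap. The difference was 0.40 ± 0.17 (adjusted p = 0.121, and 0.18 with centred arrays), and it was 0.53 with adjusted p = 0.0471 without hypoxic glomus replicate 1. Adcyap1 was lower in every normoxic neuroblast array (2.62, 2.76, 2.56 and 2.80) than in any normoxic glomus array (3.36, 3.00, 2.86 and 2.89). That difference was -0.34 ± 0.20 (adjusted p = 0.723), and in hypoxia it was 0.16 ± 0.20 (adjusted p = 0.799). Penk differed by 0.36 ± 0.20 in both populations in hypoxia (adjusted p = 0.156 in neuroblasts and 0.217 in glomus cells), and by 0.08 and 0.14 with centred arrays. Autonomic and sensory neurons also make several of these peptides. Of the 11 measured markers of such neurons 1 was higher in normoxic neuroblasts than in normoxic glomus cells, Nefl, and the list mean was 5.83 to 6.02 in neuroblasts and 5.45 to 5.67 in glomus cells.

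**Figure D3:**
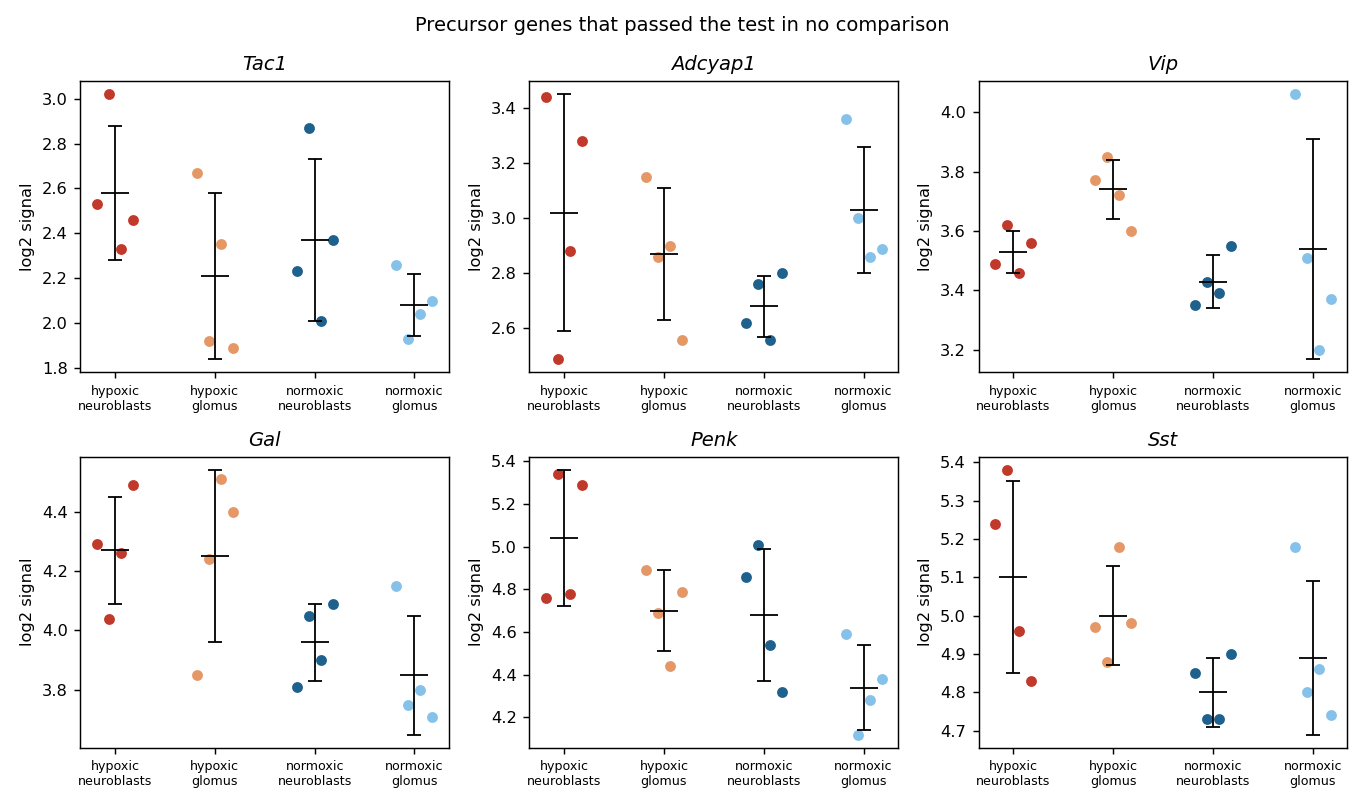
Log2 signal (vertical axes, which do not start at 0 and span a narrow range) of Tac1, Adcyap1, Vip, Gal, Penk and Sst in the 4 groups. Each coloured point is 1 array and the black bars are the group mean with its SD (n = 4); the groups mostly overlap.

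The likeness of patterns was described for the 4 genes that passed, as Pearson's r over the 16 arrays, which share the 4 group means, with no test. Most like Npy were Cks2, a partner of the cyclin-dependent kinases (r = 0.983, rho = 0.947, and r = 0.987 without the 2 arrays farthest from the Npy median), and Cenpw, a centromere protein (r = 0.963). Cks2 was at 8.65 ± 0.15 in hypoxic neuroblasts, 7.87 ± 0.25 in hypoxic glomus cells, 4.81 ± 0.37 in normoxic neuroblasts and 4.60 ± 0.22 in normoxic glomus cells (SD, n = 4), the same order of means as Npy. Most like Tac3 were C13h1orf21 (r = 0.952) and the G protein gamma subunit gene Gng8 (r = 0.944). Most like Prlh were the glycosyltransferase gene Mgat4c (r = 0.950) and Epcam, an epithelial adhesion molecule (r = 0.946). Epcam was at 4.18, 3.36, 6.04 and 5.43 in hypoxic neuroblasts, so the arrays with the 2 highest Prlh levels of that group, replicates 3 and 4, also had its 2 highest Epcam levels. The lowest Prlh level there, 6.86, and the lowest Epcam level, 3.36, were on different arrays. As the genes named here, Cks2 and Epcam among them, were chosen by r over these same arrays, their likeness is no separate evidence. Most like Cartpt were Abcc8, a subunit of the ATP-sensitive potassium channel (r = 0.903, and 0.807 without the 2 farthest arrays), and the ciliary transport gene Ift43 (r = 0.900).

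Receptors of these peptides were listed apart, and 19 of 23 were measured. Hypoxic neuroblasts had 4 that were higher and 3 that were lower than in normoxia, where 18.4% of all probes rose and 13.7% fell. In glomus cells 2 rose and 3 fell, where 9.37% rose and 9.5% fell. The receptor genes that fell were the same 3 in both populations: Npy1r, the Y1 receptor of neuropeptide Y, Sstr1, a somatostatin receptor, and Adcyap1r1, the PACAP receptor. The list's median difference was 0.34 in neuroblasts and 0.17 in glomus cells, and with centred arrays 0.06 and -0.04. Centred, 0 rose and 3 fell in neuroblasts, where 6.0% of all probes rose and 18% fell. In glomus cells 1 rose and 3 fell with centred arrays, where 4.5% of all probes rose and 12.4% fell.

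Npy1r was at 5.66, 6.37, 7.12 and 7.44 in hypoxic neuroblasts, against 9.05, 8.81, 9.54 and 9.55 in normoxic neuroblasts. It fell by 2.59 ± 0.31 there (adjusted p = 1.18e-05, and -2.87 centred), while Npy rose on the same arrays. In glomus cells Npy1r was at 6.17, 5.63, 5.55 and 5.57 in hypoxia, against 6.75, 7.30, 7.33 and 6.94 in normoxia, and fell by 1.35 ± 0.31 (adjusted p = 0.0051, and -1.56 centred). The fall in neuroblasts minus that in glomus cells was -1.24 ± 0.44 and did not pass (interaction, adjusted p = 0.581). Npy1r was also the 1 receptor gene that was higher in neuroblasts in normoxia, with 9.24 ± 0.37 in neuroblasts and 7.08 ± 0.28 in glomus cells (SD, n = 4), a difference of 2.16 ± 0.31 (adjusted p = 0.00057).

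Adcyap1r1 fell by 1.69 ± 0.25 in neuroblasts (adjusted p = 7.56e-05) and by 1.02 ± 0.25 in glomus cells (adjusted p = 0.00739), and the centred differences were -1.97 and -1.23. Sstr1 fell by 2.94 ± 0.42 in neuroblasts (adjusted p = 6.92e-05) and by 3.38 ± 0.42 in glomus cells (adjusted p = 4.98e-05), and the centred differences were -3.22 and -3.60. Galr2, a galanin receptor, was at 5.78, 5.79, 5.92 and 6.18 in hypoxic glomus cells, against 5.32, 5.16, 5.01 and 5.07 in normoxic glomus cells. It rose by 0.78 ± 0.17 (adjusted p = 0.00402, and 0.56 with centred arrays, adjusted p = 0.0474). In hypoxia Galr2 was lower in neuroblasts than in glomus cells by -1.07 ± 0.17 (adjusted p = 0.00851), where 0.145% of all probes were lower, and it was the 1 of 19 receptor genes that passed there. That call did not hold when only the 8 hypoxic arrays were fitted (adjusted p = 0.0909). Tacr3 and Prlhr, the receptor genes for neurokinin B and prolactin-releasing hormone, passed in no comparison (named for their ligands, outside the naming rule, after their values were seen). Their hypoxia differences were 0.10 ± 0.17 and 0.60 ± 0.27 in neuroblasts and -0.02 ± 0.17 and -0.34 ± 0.27 in glomus cells. With centred arrays they were -0.18 and 0.31 in neuroblasts and -0.24 and -0.56 in glomus cells, so the sign of Tacr3 in neuroblasts turned. The remaining rises were small. They were Npy5r in glomus cells and Oprd1, Sstr3, Npy4r and Sstr2 in neuroblasts (all but Oprd1 named after their values were seen), with differences of 0.58 to 0.74, and with centred arrays none of these 5 passed.

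**Figure D4:**
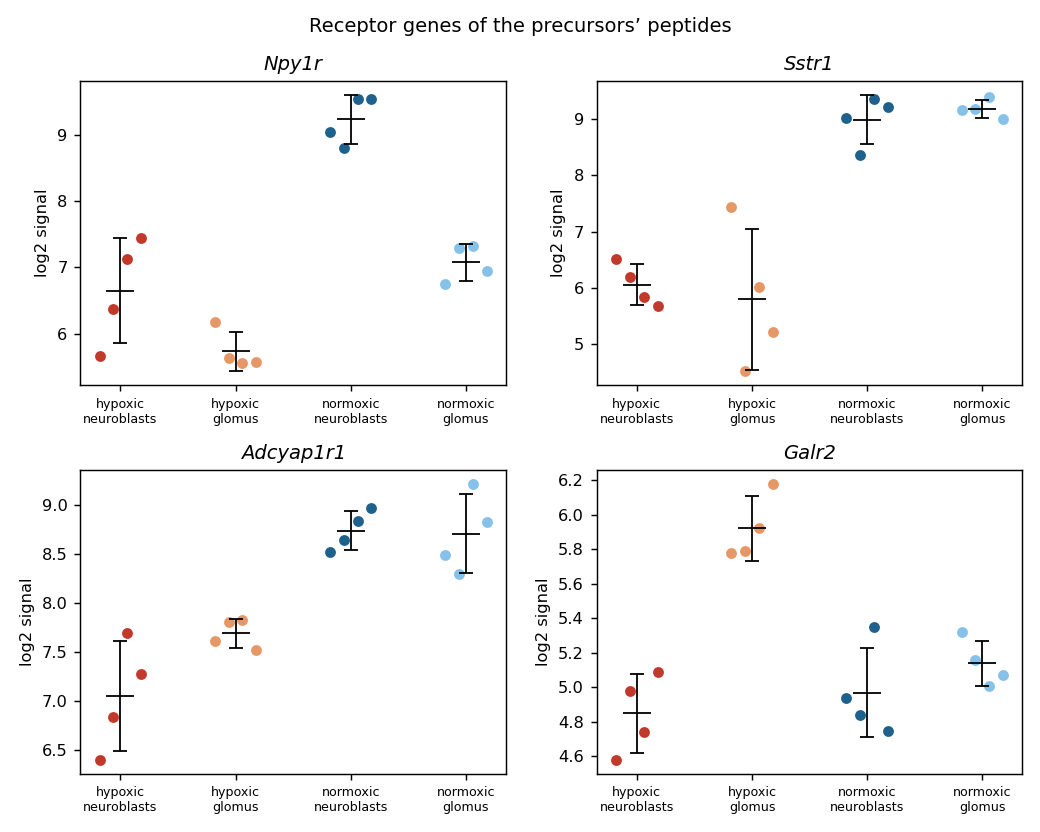
Log2 signal (vertical axes, which do not start at 0) of the receptor genes Npy1r, Sstr1, Adcyap1r1 and Galr2 in the 4 groups. Each coloured point is 1 array and the black bars are the group mean with its SD (n = 4); Npy1r, Sstr1 and Adcyap1r1 were lower in both hypoxic groups than in the normoxic group of the same cells.

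Among other peptide precursors, 49 of 56 listed genes were measured. With hypoxia 15 rose and 1 fell in neuroblasts, where 18.4% of all probes rose and 13.7% fell. In glomus cells 4 rose, near the 9.37% of all probes that did, and 1 fell, where 9.5% did. The median difference was 0.43 in neuroblasts and 0.34 in glomus cells, and 0.14 and 0.12 with centred arrays. The fall in each was Adm, the precursor of the vasodilator adrenomedullin. Adm was at 8.01, 9.19, 9.59 and 9.27 in hypoxic neuroblasts, against 10.71, 10.63, 10.84 and 10.73 in normoxic neuroblasts, and fell by 1.71 ± 0.27 (adjusted p = 0.000127, and -2.0 centred). In glomus cells it was at 9.79, 9.60, 10.39 and 9.67 in hypoxia, against 11.26, 11.22, 11.26 and 11.57 in normoxia, and fell by 1.46 ± 0.27 (adjusted p = 0.000888, and -1.68 centred). With centred arrays 6.0% of all probes rose in neuroblasts and 4.5% in glomus cells, and 1 of the 49 rose in each population. These were Gnrh1, the gonadotropin-releasing hormone precursor, in neuroblasts (1.29 ± 0.30, and 1.01 centred, adjusted p = 0.0229), and Prok2, prokineticin 2, in glomus cells (0.86 ± 0.20, and 0.65 centred, adjusted p = 0.0214). The other rises by the naming rule were Grp (0.75 ± 0.19) and Pnoc (0.70 ± 0.18) in neuroblasts and Hcrt (0.56 ± 0.17) and Apln (0.66 ± 0.21) in glomus cells. Ucn3 (0.89 ± 0.28), named after its values were seen, also rose in glomus cells, and with centred arrays neither it nor these 4 passed. By limma 0 of the 49 passed between the populations in either condition, with 1 in normoxia and 5 in hypoxia at an unadjusted p under 0.05 (share of all probes not counted).

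Of 12 genes for precursor processing, 10 were measured, without Pcsk1 and Cpe, and none of the 10 rose by limma in hypoxia. At an unadjusted p under 0.05 in either direction there were 3 in neuroblasts and 4 in glomus cells. The share of all probes at that unadjusted threshold was not counted, so these counts cannot be set against it. Furin, a convertase of the secretory pathway, fell by 0.92 ± 0.22 in neuroblasts (adjusted p = 0.00377) and by 1.06 ± 0.22 in glomus cells (adjusted p = 0.00218), and the centred differences were -1.21 and -1.27. Rnpep, an aminopeptidase for basic residues, fell by 1.29 ± 0.32 in neuroblasts (adjusted p = 0.00597) and by 1.19 ± 0.32 in glomus cells (adjusted p = 0.0146), and the centred differences were -1.58 and -1.40. These 2 of 10 stand beside 13.7% of all probes that fell in neuroblasts and 9.5% in glomus cells. The Rnpep fall in glomus cells was -1.03 with adjusted p = 0.0531 without hypoxic glomus replicate 4. With centred arrays 3 of the 10 fell in each population, where 18% of all probes did in neuroblasts and 12.4% in glomus cells. None of the 10 passed between the populations by limma, with 3 in normoxia and 1 in hypoxia at an unadjusted p under 0.05.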

How the data were processed

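Gene expression was measured on Affymetrix rat gene arrays, from 500 pg of total RNA per sample. The deposited values are log2 signals per probe, made by the authors with Transcriptome Analysis Console, per the submitters' processing notes. No version, background correction or normalization is named there, and base 2 was inferred from the values (0.87 to 13.33) and the tool. All 30429 probes were kept. Per gene, the single-gene probe with the highest mean over 16 arrays was used. Limma 3.58.1 in R 4.3.3 (lmFit and eBayes, 1 mean per group, two-sided, Benjamini-Hochberg over all probes) was run on the log2 values, after a check on simulated data. The 4 pairwise comparisons and the interaction (the neuroblasts' hypoxia difference minus that of the glomus cells) were tested. The p-values measure the spread between these samples, which may be technical, and the number of arrays limits the precision.

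The 10 members and the lists of other precursors, receptors, processing genes and cell markers were chosen with earlier results of these data known. Named were all members, up to 4 genes per list that passed, by smallest p, in each pairwise comparison, and the 2 genes most like each member that passed. Alternatives were scaling, filters on dim probes, variance models, array weights, fits of only the groups compared, a block for the replicate number, gene means over probes, and leaving out each array. Promoter windows are from RefSeq, build GRCr8. Plots used matplotlib 3.10.9 under Python 3.11.15.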

Additional observations from a re-analysis of the deposited data

Results flagged for a closer look

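In 2 of the 40 sets of 4 values, a member in a group, 1 array lay far from the other 3 relative to the range of the set. Npy in hypoxic glomus cells was at 8.99 on replicate 2, against 9.33 to 9.34 on the others. Tac3 in hypoxic glomus cells was at 10.84 on replicate 1, against 10.18 to 10.25 on the others. Chance alone would give this in about 1 of 20 sets, and both genes passed their hypoxia comparison without the array concerned.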

How the results depend on the processing

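The calls of Npy and Tac3 for hypoxia in both populations, of Cartpt for hypoxia in neuroblasts, and of Tac3 and Prlh between normoxic populations held under all 25 alternatives. Of 1210 values over the 50 member results, 0 changed sign with a call, 1 lost its call (Prlh between hypoxic populations, fitted on those groups alone), and 23 gained one. The count of members that passed between the populations in hypoxia was 2 without the dimmer 50% of probes and 2 with the replicate block, each adding Tac3, and 1 to 2 when single arrays were left out. Fitted on those groups alone it was 1, with Tac3 in place of Prlh. In hypoxic against normoxic glomus cells the count was 4 with array weights, adding Gal and Cartpt. Replicate numbers are shared between groups, but correlations of same-numbered arrays, from -0.105 to 0.205, did not show that they pair samples, so the replicate block stands only here. It left the counts at 2 between normoxic populations, 2 for hypoxia in glomus cells, 3 for hypoxia in neuroblasts and 0 for the interaction. The 15 other precursors that rose in neuroblasts were 1 with centred arrays, 5 with quantile normalization, 7 without the dimmer 50% of probes, 8 with only the groups compared, and 9 with array weights or without normoxic neuroblast replicate 3. The 4 in glomus cells were 1 with centring or quantile normalization, 7 with only the groups compared, 17 with array weights, and 1 to 7 without single arrays. The 4 receptor genes that rose in neuroblasts were 0 with centred arrays, while the falls of Npy1r, Sstr1, Adcyap1r1, Adm and Furin held under every alternative. The cause of these shifts was not tested. Dim signals, below the array median for Tac1, Adcyap1, Vip and Gal on every array, limit what can be said of small changes.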
